A study of Danio rerio with 7 samples.

Results

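The genes described here are those of the circadian clock and its direct outputs in zebrafish (Danio rerio) larval heads. They were chosen by name as 38 members: period and cryptochrome repressors, Clock, Npas2 and Arntl (Bmal) activators, the orphan nuclear receptors of the nr1d and ror families, the bZIP output factors, further repressors, casein kinases and the melatonin enzyme gene aanat2. All 38 have a row among the 30421 gene rows of the table, 34 under their own symbol and 4 (cry1a, cry1b, cry3a and cry3b) as cry1aa, cry1ab, cry1ba and cry1bb, which RefSeq lists as their synonyms. The low-count filter kept 37 of them among 19275 genes tested, and aanat2 did not pass it. In the RefSeq annotation of GRCz12tu the members lie on 18 chromosomes, and none lies on chromosome 14, to which the study mapped its mutation.

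The study compared heads of larvae that carried hm41, a mutation with a phenotype named leaky, with those of wild type (WT) siblings, in work on the blood-brain barrier. It traced the lesion to spock1, a gene for a secreted matrix proteoglycan. Both groups were pooled heads at 5 days post fertilization (dpf), with 3 bulk RNA-seq libraries each, named here WT 66, 67 and 68 and hm41 69, 70 and 71. The labels give neither the number of heads in a pool, nor whether hm41 larvae were homozygous, nor the hour of collection or the light regime, and they name no batch. The only other sample, a single-cell library of mixed genotypes, was not analysed here.

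In the vertebrate clock, Clock and Arntl proteins bind E-box sites and switch on period, cryptochrome and nr1d genes, whose proteins then shut off the activators or their genes. PAR bZIP factors (Dbp, Tef, Hlf) and their antagonist Nfil3 act on D-box sites downstream. In zebrafish nearly every cell runs such a clock and is set directly by light. The per1, per3 and nr1d genes peak around dawn and the clock and arntl genes around dusk, so the balance of these sets follows the hour at which a tissue is taken.

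Levels are given in CPM, a gene's counts as a share of its library's total after scaling by TMM (trimmed mean of M-values), in the order WT 66, 67, 68 and then hm41 69, 70, 71. Total counts were 33775984 to 114604258, but 8 rows held 93.6% to 95.7% of each library, which left 1664845 to 4959749 counts for all other genes and makes CPM values small. WT 67 was the shallowest by that measure and lay farthest from the mean of the libraries, with a root mean square deviation of 0.54 on the log2 scale over all genes tested, against 0.37 to 0.48 for the others. Libraries also split by the row LOC110438492, with 2589780 to 5141165 counts in WT 68, hm41 70 and hm41 71 but 0 to 6 in the rest. Nothing says that the libraries of a group came from separate clutches, so the p-values rest on the spread between these libraries. The edgeR fit draws each gene's spread toward that of all genes. A steady gene can therefore have a larger standard error (SE) than its own libraries would give. Group means carry ± SD (n = 3 each), and log2 fold changes, always hm41 over WT, carry ± SE or a 95% confidence interval (CI). No transcript lengths were used, so levels are compared between libraries and not between genes.

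None of the 37 tested clock genes was called different by genotype in either direction. Across all genes 0.0571% were called (11 of 19275; 0.0156% higher and 0.0415% lower) by edgeR's quasi-likelihood test at a Benjamini-Hochberg adjusted p under 0.05, and the lowest adjusted p of a member was 0.219. At an unadjusted p under 0.05 there were 6 members (16.2%), 4 higher and 2 lower in hm41, against 10.4% of all genes tested (5.35% higher and 5.05% lower). Without WT 66 there were 3 of 37 members, against 7.9% of all genes. Without WT 67 there were 7 of 37, against 8.37%, and without hm41 69 there were 8 of 37, against 10.5%. DESeq2 called 3 members (nr1d2a, nr1d2b and nfil3-6, all higher), where it called 8.08% of the 2463 genes that got an adjusted p (5.64% higher). It gave no adjusted p to 17 of the 37, so the 8.08% compares with the rest of the members and not with all 37. The median log2 fold change of hm41 over WT was -0.04 over the members and -0.02 over all genes tested, and the members' values ran from -0.72 to 0.60. With library totals alone the median of all genes was 0.20, and 29 members had values above 0 in place of 16. For 34 members the whole CI lay between -1 and 1, the exceptions being cry3b, arntl2 and nr1d4a, 3 genes with few counts. In pooled heads, fewer cells of a type and less RNA per cell cannot be told apart.

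The groups did not overlap for 13 of the 37 members (35.1%), against 16.5% of all genes tested (8.09% with hm41 above and 8.44% with hm41 below). In 7 of these every hm41 library was above every WT library (nr1d2a, nr1d2b, nfil3-6, nfil3-5, dbpb, ciarta and clockb), and in 6 every hm41 library was below (per3, cry2, cry3b, cry5, arntl2 and nr1d4a). Without WT 67 there were also 13 of 37, against 25.4% of all genes. The median member had a mean of 293 counts a library against 63.7 over all genes tested, and no background matched for counts was used. With all 6 libraries, the share without overlap in lists of marker genes was 44.4% (photoreceptor), 50% (neuron), 50% (radial glia) and 61.5% (epidermis). It was 23.1% for pineal, 18.2% for liver and 0% for muscle genes. Members are not independent of each other, since their products act on each other's genes.

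**Figure D1:**
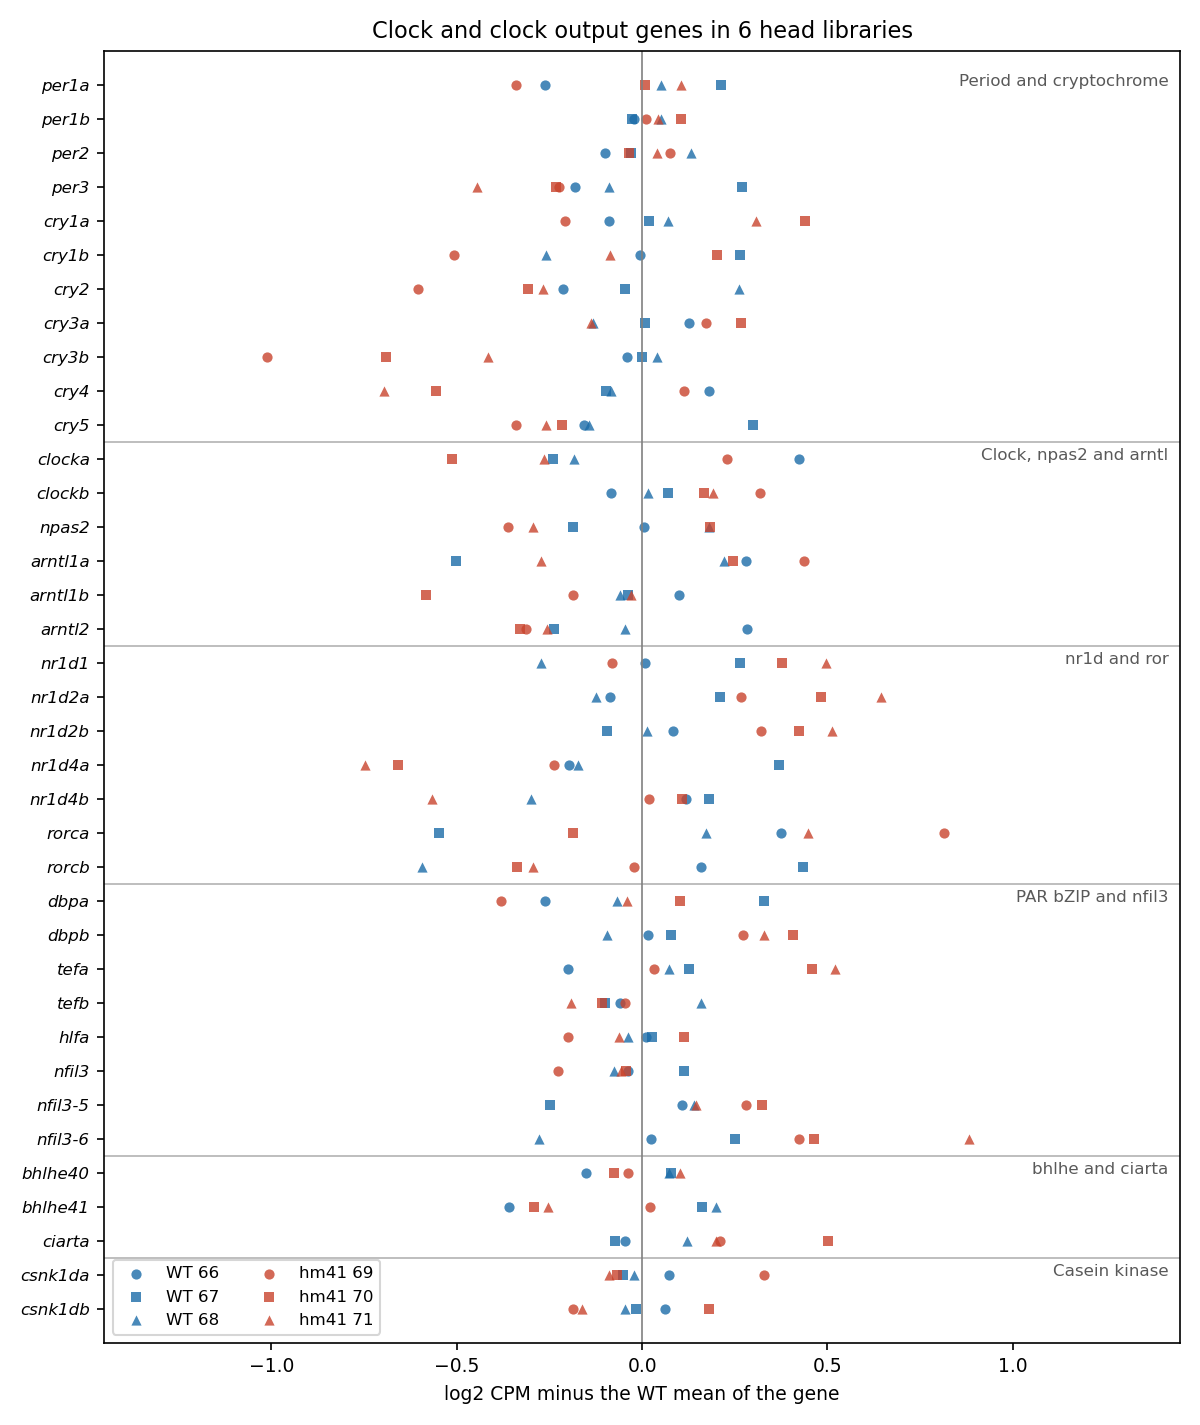
The level of each of the 37 tested members in each library is shown as log2 CPM minus the mean of the 3 WT libraries, with WT in blue, hm41 in red and a marker shape for each library. Points of both groups are mixed for most genes, while all 3 red points lie to the right of the blue ones for 7 genes and to the left for 6.

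The period genes encode the core repressors. The gene per1b, which peaks around dawn, was the steadiest of them at 27.2, 27.1, 28.6, 27.9, 29.7 and 28.5 CPM. All 6 libraries lay within a factor of 1.097, and the log2 fold change was 0.05 (CI -0.27 to 0.37; adjusted p = 0.942). Its paralog per1a had 8.52, 11.8, 10.6, 8.07, 10.3 and 10.99 CPM, with 1 low library in each group (WT 66 and hm41 69). The log2 fold change of per1a was -0.07 ± 0.17 (adjusted p = 0.929), a sign that turned without WT 67, without hm41 69 and with library totals alone.

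The light-induced per2, which links the zebrafish clock to illumination, had 10.9, 11.4, 12.8, 12.3, 11.4 and 11.99 CPM. Its groups overlapped fully and the log2 fold change was 0.02 ± 0.16 (adjusted p = 0.9751). For per3 the levels were 9.60, 13.1, 10.2, 9.33, 9.27 and 7.98 CPM. Each hm41 library was below each WT library, although WT 66 and hm41 69 nearly met, and the log2 fold change was -0.30 (CI -0.65 to 0.04; adjusted p = 0.55). Without WT 67, its highest library, the value came closer to 0, at -0.16 (adjusted p = 0.859).

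Cryptochromes are flavoproteins related to photolyases, and in the clock several of them repress Clock and Arntl. The gene cry2 had 7.52, 8.45, 10.5, 5.72, 7.05 and 7.25 CPM. The hm41 libraries were the 3 lowest, averaging 8.81 ± 1.5 CPM over the WT and 6.67 ± 0.83 CPM over the hm41 libraries. The log2 fold change was -0.40 (CI -0.76 to -0.04; unadjusted p = 0.0298, adjusted p = 0.422, edgeR's quasi-likelihood test). For cry3b, counted from 16 to 76 reads a library, the levels were 0.833, 0.858, 0.882, 0.409, 0.518 and 0.635 CPM. It had the lowest fold change of the 37 tested members, -0.72 (CI -1.37 to -0.07; adjusted p = 0.431), while its paralog cry3a had 0.11 ± 0.16 (adjusted p = 0.868).

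The photolyase-like cry5, a light-induced gene of DNA repair, had 1.34, 1.85, 1.35, 1.18, 1.28 and 1.25 CPM. Its hm41 libraries lay just under the lowest WT value, and the log2 fold change was -0.26 ± 0.24 (adjusted p = 0.756). The light-induced cry1a had 6.25, 6.73, 6.99, 5.75, 9.04 and 8.23 CPM, so that hm41 held both the lowest and the highest library. The remaining cryptochromes, cry1b and cry4, had overlapping groups and log2 fold changes of -0.08 ± 0.22 and -0.37 ± 0.26 (adjusted p = 0.936 and 0.658). Of the 7 cryptochrome genes 2 had values above 0 and 5 below, with a median of -0.26.

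Among the activators, clockb had 3.20, 3.56, 3.43, 4.24, 3.81 and 3.88 CPM. All hm41 libraries were above all WT libraries by a small step, with a log2 fold change of 0.23 ± 0.17 (adjusted p = 0.685). The paralog clocka had 2.58, 1.62, 1.68, 2.25, 1.33 and 1.59 CPM. Here WT 66 and hm41 69 were high and the other 4 low, whatever the genotype, and the log2 fold change of -0.23 ± 0.25 (adjusted p = 0.815) turned to 0.05 without WT 66 and with library totals alone.

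The Bmal gene arntl1a had 1.56, 0.891, 1.49, 1.74, 1.52 and 1.05 CPM. WT 67 and hm41 71 were its low libraries, and it spread 1.95-fold over all 6, with a log2 fold change of 0.09 ± 0.26 (adjusted p = 0.943) that turned negative without WT 67 or hm41 69. For arntl2, at 18 to 79 counts a library, the levels were 0.866, 0.594, 0.682, 0.562, 0.555 and 0.586 CPM. The hm41 libraries were lowest, though WT 67 nearly met them, and the log2 fold change was -0.36 ± 0.32 (adjusted p = 0.745). The values of arntl1b and npas2, which encodes a relative of Clock, were -0.29 ± 0.30 and -0.14 ± 0.25 (adjusted p = 0.799 and 0.893), with overlapping groups.

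The nr1d genes encode Rev-erb receptors, which repress arntl and clock genes at ROR response elements. Both nr1d2 paralogs were higher in each hm41 library than in any WT library. For nr1d2a the levels were 17.8, 21.9, 17.4, 22.8, 26.5 and 29.7 CPM, averaging 19.1 ± 2.51 CPM over the WT and 26.3 ± 3.43 CPM over the hm41 libraries. This is 1.38-fold, a log2 fold change of 0.47 (CI 0.12 to 0.82; unadjusted p = 0.0114, adjusted p = 0.315, edgeR's quasi-likelihood test; DESeq2 adjusted p = 0.0327).

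For nr1d2b the levels were 26.8, 23.7, 25.5, 31.6, 33.9 and 36.1 CPM, averaging 25.3 ± 1.56 CPM over the WT and 33.9 ± 2.24 CPM over the hm41 libraries. The gap between the highest WT and the lowest hm41 library was wider than the range within WT. The log2 fold change was 0.42 (CI 0.09 to 0.75; unadjusted p = 0.0151, adjusted p = 0.341, edgeR's quasi-likelihood test; DESeq2 adjusted p = 0.0251), and it ran from 0.37 to 0.47 when 1 library at a time was left out.

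The other receptors gave mixed values. The levels of nr1d1 were 7.02, 8.38, 5.76, 6.59, 9.06 and 9.84 CPM, with hm41 69 among the low libraries and overlapping groups (log2 fold change 0.28 ± 0.18, adjusted p = 0.632). For nr1d4a, at 18 to 60 counts a library, they were 0.658, 0.990, 0.670, 0.639, 0.469 and 0.439 CPM. That is the opposite order, hm41 below WT, with a log2 fold change of -0.55 ± 0.335 (adjusted p = 0.597). The values of nr1d4b, rorca and rorcb were -0.11 ± 0.24, 0.30 ± 0.27 and -0.25 ± 0.29 (adjusted p = 0.922, 0.743 and 0.825). Ror proteins compete with Rev-erb at the same elements, and rorca spread more widely than any other tested member over the 6 libraries, by 2.62-fold.

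**Figure D2:**
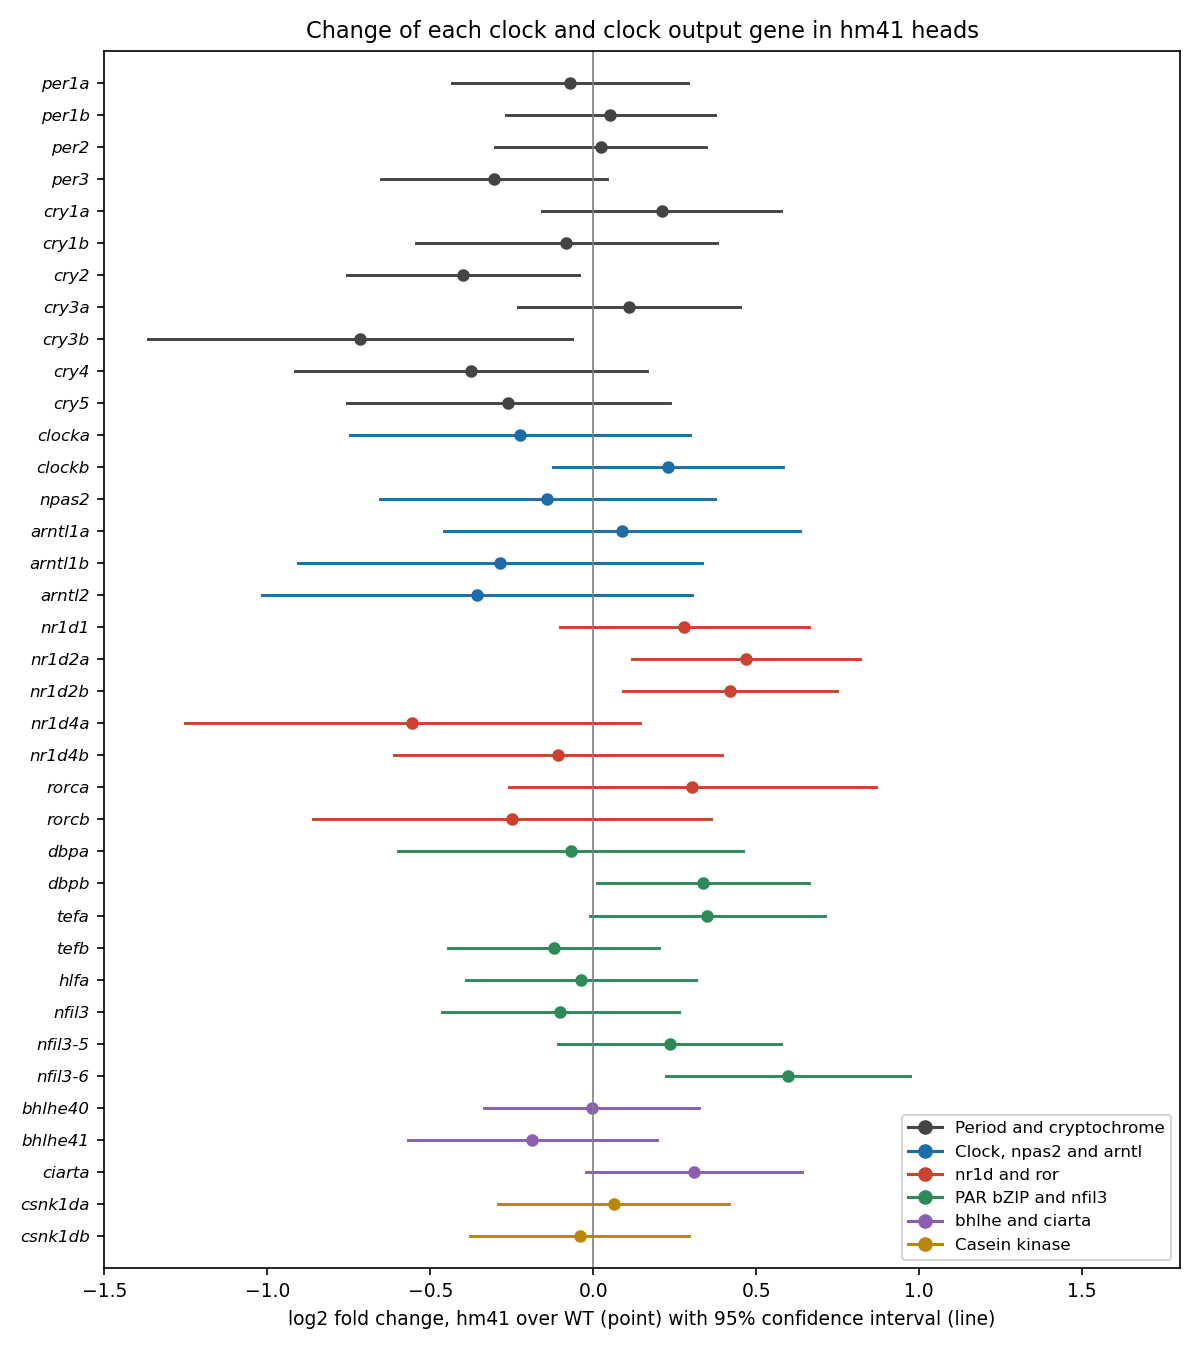
The log2 fold change of hm41 over WT (point) with its 95% confidence interval (line) is shown for the 37 tested members, coloured by role. The intervals of 6 members exclude 0 without adjustment for the 19275 genes tested (nfil3-6, nr1d2a, nr1d2b and dbpb above, cry2 and cry3b below), and after adjustment none is called.

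Of the bZIP output factors, nfil3-6 had the smallest p of all members. Nfil3 proteins repress at D-boxes, and nfil3-6 is 1 of several zebrafish paralogs. Its levels were 6.85, 8.02, 5.55, 9.04, 9.29 and 12.4 CPM, averaging 6.81 ± 1.23 CPM over the WT and 10.3 ± 1.89 CPM over the hm41 libraries. Each hm41 library exceeded each WT library, hm41 71 by most. The difference was 1.51-fold, a log2 fold change of 0.60 (CI 0.22 to 0.97; unadjusted p = 0.00327, adjusted p = 0.219, edgeR's quasi-likelihood test; DESeq2 adjusted p = 0.0272). Without hm41 71 it was 0.45 (adjusted p = 0.53).

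For nfil3-5 the levels were 5.76, 4.49, 5.88, 6.49, 6.69 and 5.91 CPM, with WT 68 and hm41 71 almost equal and a log2 fold change of 0.23 ± 0.16 (adjusted p = 0.66). The gene nfil3 itself had overlapping groups and a value of -0.10 ± 0.17 (adjusted p = 0.89), negative in each edgeR fit but that with library totals alone.

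Among the members, the PAR bZIP activators come as pairs of paralogs, apart from hlfa. The gene dbpb had 18.8, 19.6, 17.4, 22.4, 24.6 and 23.3 CPM. Its groups stood apart with little spread inside either (18.6 ± 1.11 against 23.5 ± 1.102 CPM), for a log2 fold change of 0.34 (CI 0.01 to 0.66; unadjusted p = 0.0423, adjusted p = 0.465, edgeR's quasi-likelihood test). The light-induced tefa had 12.5, 15.7, 15.1, 14.7, 19.7 and 20.6 CPM, so hm41 69 stayed within the WT range (0.35 ± 0.17, adjusted p = 0.499). The other 3, dbpa, tefb and hlfa, had overlapping groups and values of -0.07, -0.12 and -0.04.

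Among the further repressors, ciarta (Chrono), which binds Arntl, had 7.74, 7.59, 8.69, 9.25, 11.3 and 9.18 CPM. All hm41 libraries were above WT, hm41 70 by most, with a log2 fold change of 0.31 (CI -0.02 to 0.64; adjusted p = 0.515). The E-box repressor bhlhe40 averaged 18.6 ± 1.64 CPM over the WT and 18.6 ± 1.23 CPM over the hm41 libraries, and bhlhe41 had a log2 fold change of -0.19 ± 0.18 (adjusted p = 0.783). The kinase genes csnk1da and csnk1db, whose products phosphorylate Period proteins, had values of 0.06 ± 0.17 and -0.04 ± 0.16 (adjusted p = 0.937 and 0.955).

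**Figure D3:**
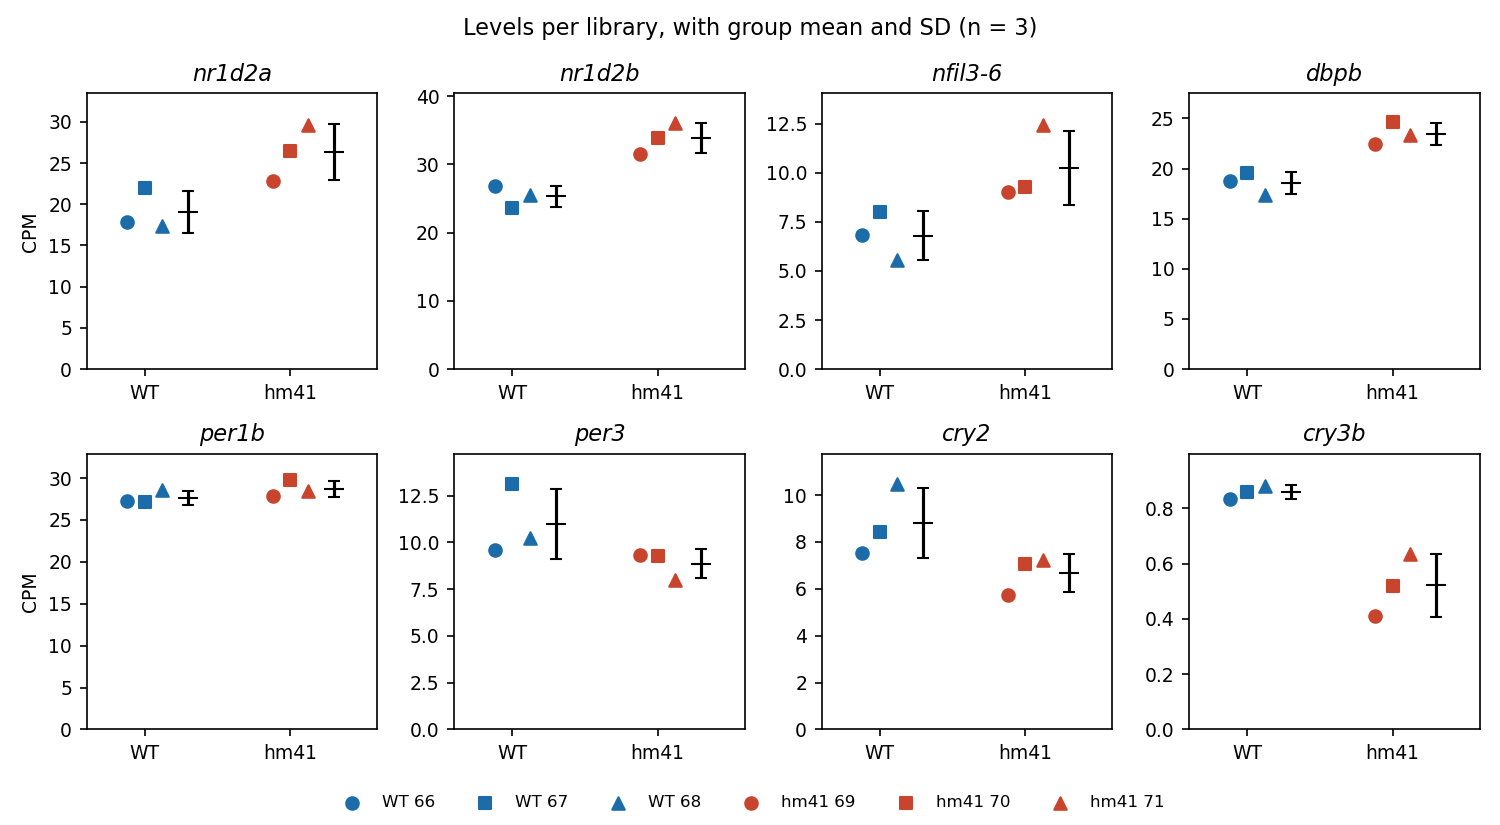
The level in CPM of 8 members is shown per library, WT in blue and hm41 in red, with the group mean and SD as a black bar (n = 3 each) and axes from 0. The hm41 points of nr1d2a, nr1d2b, nfil3-6 and dbpb lie above the WT points and those of per3, cry2 and cry3b below, while per1b is level at 27.1 to 29.7 CPM.

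The pineal gene aanat2 encodes the enzyme that sets the night-time rhythm of melatonin. It had 14, 9, 15, 2, 10 and 7 counts, or 0.153, 0.297, 0.176, 0.0511, 0.123 and 0.171 CPM. The groups overlapped, hm41 69 being lowest with 2 counts, and the sums of 38 counts in WT and 19 in hm41 were too small to pass the low-count filter. With no filter the log2 fold change was -0.76 ± 0.73 (adjusted p = 0.803), which does not resolve a difference at this depth. Other pineal transcripts were counted. The pineal opsin gene exorh had 17 to 89 counts a library and a log2 fold change of 0.03 ± 0.32 (adjusted p = 0.985), and asmt, the last enzyme of melatonin synthesis, had 10 to 38 counts and -0.05 ± 0.41 (adjusted p = 0.978).

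To see whether libraries differed along the day, 9 morning genes (per1a, per1b, per3, nr1d1, nr1d2a, nr1d2b, nr1d4a, nr1d4b and ciarta) were set against 6 evening genes (arntl1a, arntl1b, arntl2, clocka, clockb and npas2). An index was taken per library as the mean of the morning genes minus that of the evening genes, each gene in log2 CPM centred on its mean over the 6 libraries. Its values were -0.30, 0.26 and -0.17 for WT 66, 67 and 68, and then -0.10, 0.19 and 0.11 for hm41 69, 70 and 71. From the evening to the morning end the order was WT 66, WT 68, hm41 69, hm41 71, hm41 70 and WT 67, with WT libraries at both ends. The evening genes had fewer counts, with a median over genes of 86 a library against 598 for the morning genes. In WT 67 they had from 18 (arntl2) to 108 (clockb) counts, so its place at the morning end rests partly on low counts. Only WT 67 kept the groups from standing apart, since WT 66 and WT 68 lay below every hm41 library. Its mean was -0.07 ± 0.30 in WT and 0.07 ± 0.15 in hm41, so the difference of 0.14, which was not tested, was smaller than the spread within groups (pooled SD 0.23).

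The difference moved with single libraries and with the genes chosen. Without WT 67, the shallowest library, it was 0.31, above the pooled SD of 0.23 from all 6 libraries. That SD is widened by WT 67 itself, so it overstates the spread of the libraries that remain. The difference was 0.22 without hm41 69, 0.088 without WT 68, 0.077 without hm41 70 and 0.023 without WT 66. With wider lists of 14 morning and 9 evening genes it was 0.039. The wider evening list took in nfil3, nfil3-5 and nfil3-6, with log2 fold changes of -0.10, 0.23 and 0.60, the last being the highest of the tested members. The values of nfil3-5 and nfil3-6 lower the difference. The order of the 6 libraries was the same with library totals alone, with the size factors of DESeq2 and without the 8 most abundant rows. Mean levels of the morning and the evening genes had opposite signs in 6 of 6 libraries with TMM, in 5 of 6 without the 8 most abundant rows and in 0 of 6 with library totals alone, which adds a shift common to all genes. Relative to the median of all genes, the median fold change was 0.07 for the morning and -0.16 for the evening genes with TMM, and 0.07 and -0.14 with library totals alone. Of the libraries with high LOC110438492 counts, WT 68 lay on the evening side of the index and hm41 70 and 71 on the morning side.

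**Figure D4:**
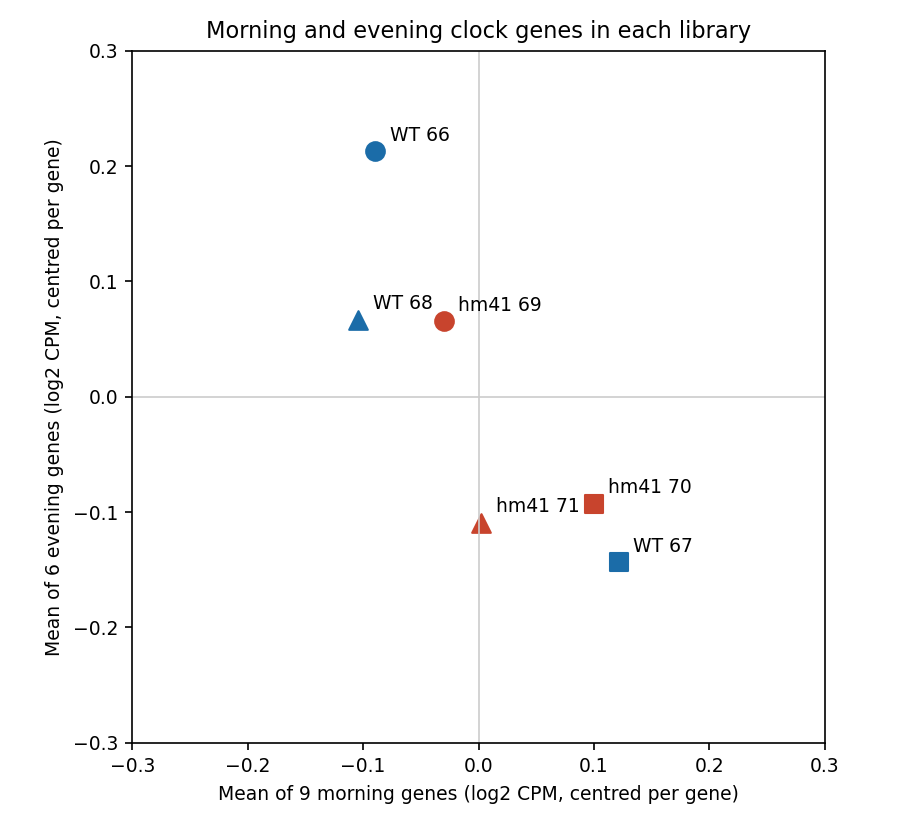
The mean of the 9 morning genes (horizontal) is plotted against that of the 6 evening genes (vertical) for each library, both in log2 CPM centred per gene over the 6 libraries. WT 66, WT 68 and hm41 69 lie at upper left and WT 67, hm41 70 and hm41 71 at lower right, with libraries of both genotypes on either side and no library beyond 0.22 from 0 on either axis.

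Neither set had all its values on 1 side between genotypes. Of the morning genes 5 had values above 0 and 4 below (median 0.05), and of the evening genes 2 above and 4 below (median -0.18). The morning genes per3 and nr1d2b stood on opposite sides, with log2 fold changes of -0.30 and 0.42. Their ratio within a library needs no scaling, but it follows from those levels and is no separate evidence. For each per3 count, WT libraries held 2.79, 1.802 and 2.49 counts of nr1d2b, and hm41 libraries 3.39, 3.66 and 4.52. For each per1b count, WT libraries held 0.984, 0.872 and 0.892 counts of nr1d2b, and hm41 libraries 1.13, 1.14 and 1.27. In both ratios, which were chosen after the values were seen and carry no test, each hm41 library was above each WT library.

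The ratio of the dawn gene per1b to the dusk gene clockb, chosen in the same way, overlapped, at 8.50, 7.61 and 8.34 for WT, then 6.57, 7.80 and 7.33 for hm41. That of per3 to clockb did not, at 3.00, 3.69 and 2.98 for WT, then 2.20, 2.43 and 2.06 for hm41. This follows from the levels, as the groups of per3 and clockb lay apart in opposite directions. Of the evening genes only clockb had every hm41 library above WT. The ratio of nr1d2b to clockb overlapped and leaned higher in hm41. It was 8.36, 6.64 and 7.43 for WT, then 7.45, 8.90 and 9.29 for hm41. Paralogs also parted in sign. Of 12 pairs, 3 had the same sign in both genes (nr1d2a and nr1d2b, nr1d4a and nr1d4b, bhlhe40 and bhlhe41) and 9 had opposite signs. Many of these values were smaller than their SE, as for per1a (-0.07 ± 0.17) and per1b (0.05 ± 0.15). With library totals alone per1a, cry1b, clocka, rorcb, dbpa, tefb and csnk1db turned positive, so that each had the sign of its paralog. In that setting nr1d4a and nr1d4b parted. The sources used here do not say how reads shared by paralogs were divided.

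Members varied less within groups than the median gene. The median SD of log2 CPM within groups was 0.21 over the members and 0.32 over all genes tested, but the median member also had a mean of 293 counts a library against 63.7. Within WT the highest library exceeded the lowest by a median of 1.26-fold over the members and 1.48-fold over all genes.

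Other genes tied to the clock were read from lists of names. Of 10 tested light-induced genes, of which per2, cry1a, cry5 and tefa are members, 0 passed the test in either direction, and 0 were higher and 2 lower at an unadjusted p under 0.05, where all genes tested gave 5.35% and 5.05%. The lower ones, both of DNA repair or related to it, were ddb2, a sensor of ultraviolet damage (-0.62 ± 0.27, adjusted p = 0.442), and cry-dash (-0.63 ± 0.30, adjusted p = 0.479). Next by p were the member tefa, with a value above 0 (0.35 ± 0.17, adjusted p = 0.499), and the base excision gene neil1 (-0.74 ± 0.41, adjusted p = 0.557). The groups overlapped for cry-dash, tefa and neil1 but not for ddb2. The list as a whole was divided, with 5 values above 0 and 5 below.

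Of 25 tested further clock factors, 0 passed, with 2 higher (8% of the list) and 0 lower at that unadjusted p, against 5.35% and 5.05% of all genes. These were gsk3ab, a kinase gene (0.46 ± 0.18, adjusted p = 0.354), and nfil3-2, another nfil3 paralog (0.54 ± 0.21, adjusted p = 0.365), followed by fbxl3a, for the ligase subunit that marks cryptochromes for breakdown (0.42 ± 0.21, adjusted p = 0.515), and csnk2b (0.32 ± 0.17, adjusted p = 0.524).

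Of 13 clock-controlled genes, 0 passed and 0 had an unadjusted p under 0.05 by edgeR. Their smallest p-values belonged to pdk4, a kinase gene of fuel use (0.40 ± 0.27, adjusted p = 0.65), bhlhe22 (0.28 ± 0.21, adjusted p = 0.692), wee1, a brake on mitosis (-0.35 ± 0.30, adjusted p = 0.734), and namptb, of NAD salvage (-0.29 ± 0.24, adjusted p = 0.734). DESeq2 called 0 genes of these lists or of the pineal one, but gave no adjusted p to 5 of the 10 light-induced, 14 of the 25 further clock, 8 of the 13 clock-controlled and 12 of the 13 pineal genes, which it could therefore not call. Of 13 tested genes of the pineal list 0 passed, and 3 were higher and 1 lower at an unadjusted p under 0.05 (5.35% and 5.05% of all genes). Higher were pde6c, otx5 and tbx2b (0.47, 0.51 and 0.47), of which pde6c is the cone phosphodiesterase, and lower was gch2 (-1.07 ± 0.29, adjusted p = 0.193), which yellow pigment cells also use.

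Summed marker levels of several tissues differed between the groups. By edgeR 1 of 18 photoreceptor genes passed, and 0 of 14 neuron, 0 of 8 radial glia and 0 of 13 epidermal genes. Of 14 muscle and 11 tested liver genes 0 passed, against 0.0571% of all genes. At an unadjusted p under 0.05 the shares were 55.6%, 42.9%, 75%, 61.5%, 7.14% and 36.4% in that order, against 10.4% of all genes. DESeq2 called 6, 4, 2, 4, 0 and 2 of these genes, but gave no adjusted p to 6, 4, 2, 2, 4 and 4. It called 8.08% of all genes that got an adjusted p. All 18 photoreceptor and all 8 radial glia genes had values above 0, as had 13 of 14 neuron genes. Of the epidermal genes 2 had values above 0 and 11 below, and of the muscle genes 11 above and 3 below. The liver (6 above, 5 below) and pineal (7 above, 6 below) genes were divided. The summed level of 18 photoreceptor genes was 221 to 331 CPM in WT and 437 to 466 CPM in hm41, that of 14 neuron genes 127 to 139 and 156 to 199 CPM, and that of 8 radial glia genes 76.4 to 98.3 and 113 to 129 CPM. Sums of 13 epidermal genes were 1719 to 1911 CPM in WT and 1175 to 1267 CPM in hm41, whereas those of 14 muscle genes overlapped (614 to 1220 and 838 to 1073 CPM). For 12 liver genes the sums were 204 to 222 and 231 to 299 CPM, and for 19 pineal genes, pde6c included, 22.8 to 29.3 and 31.1 to 33.4 CPM, with parapinopsina at 0 in all libraries. The cone gene pde6c alone made up a large part of the pineal sums, with 13.9, 11.2 and 17.6 CPM in WT and 17.6, 20.8 and 21.0 CPM in hm41. The part of these tissues in the higher nr1d2a, nr1d2b, nfil3-6 and dbpb values, or in the lower cry2 and cry3b values, was not tested.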

How the data were processed

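Per the file headers and the submitters' processing notes, the authors deposited expected counts per gene, unscaled, in which RSEM, TopHat, Bowtie2 and GRCz11 are named without role or version. The library kit was directional, per the labels; no source used here gives the annotation or whether counting used strand. Values were rounded to whole counts. The 3 WT and 3 hm41 libraries were compared with edgeR 4.0.16 in R 4.3.3 (filterByExpr, TMM, robust quasi-likelihood F-test, two-sided, no covariate), with Benjamini-Hochberg adjustment over all 19275 genes tested at 0.05, and with DESeq2 1.42.0 as an alternative. SE and intervals come from the test's F statistic. The index used log2 CPM with a prior count of 2. RefSeq names of GRCz12tu served to match 4 symbols through their synonyms. The fit was tested on simulated data. Every member is accounted for; those with an unadjusted p under 0.05, without overlap between groups, or fixed by name have values per library, and of other lists up to 4 genes with the smallest p are named. The members and lists were chosen with earlier results of these data known.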

Additional observations from a re-analysis of the deposited data

How the results depend on the processing

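No paired analysis was run, because the labels name no pair or clutch that links a WT to an hm41 library. Of 19275 genes, 11 were called; 47 were with library totals alone, 199 with DESeq2, 131 with no low-count filter, 19 with a term for the LOC110438492 split, and 6 (without hm41 70) to 44 (without WT 68) with 1 library left out. Members called numbered 3 with DESeq2 and 0 in every other setting run. Members at an unadjusted p under 0.05 numbered 3 of 37 (without WT 66, against 7.9% of all genes) to 8 of 37 (without hm41 69, against 10.5%). With library totals alone the medians were 0.27 for the morning and 0.060 for the evening genes, a shift shared by all genes, whose own median moved from -0.02 to 0.20.

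Of 444 values of members under these settings, 404 kept sign and side of the threshold, 3 passed it (DESeq2) and 37 changed sign, none of them called. With library totals alone, log2 fold changes turned to 0.20 for bhlhe40, 0.013 for bhlhe41, 0.048 for clocka, 0.15 for cry1b, 0.19 for csnk1db, 0.14 for dbpa, 0.19 for hlfa, 0.12 for nfil3, 0.072 for npas2, 0.15 for nr1d4b, 0.13 for per1a, 0.017 for rorcb and 0.091 for tefb. The value of bhlhe40 was 0.0068 with DESeq2 size factors, 0.014 with DESeq2, 0.0011 with no filter and 0.0059 without the 8 most abundant rows, and nr1d4b was 0.013 with the LOC110438492 term. With 1 library left out, values ran from -0.083 to 0.27 for arntl1a, -0.072 to 0.034 for bhlhe40, -0.45 to 0.046 for clocka, -0.29 to 0.084 for cry1b, -0.079 to 0.15 for csnk1da, -0.18 to 0.029 for csnk1db, -0.20 to 0.087 for dbpa, -0.13 to 0.037 for hlfa, -0.26 to 0.084 for nr1d4b, -0.19 to 0.051 for per1a and -0.024 to 0.088 for per2. The cause of these changes was not tested. Low counts limit cry3b, arntl2, nr1d4a and aanat2 most.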
